A study of Mus musculus with 6 samples.

Results

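The ILC2 lineage transcription factors examined here are Gata3, Rora, Id2, Bcl11b, Gfi1, Nfil3, Tcf7, Ets1, Tox and Zbtb16, a set of 10 genes listed by symbol and found among the 52636 genes of the deposited count table. All 10 also had enough counts to be among the 15197 genes tested. The libraries came from innate lymphoid cells (ILCs) of mouse lung. KLRG1-positive cells gave 3 libraries and KLRG1-negative cells gave 3. KLRG1 is a lectin-like receptor of activated lymphocytes, and the labels call the KLRG1-positive cells ILC2 and the KLRG1-negative cells only ILC. Both sorts came from wild-type C57BL/6 mice with an Il4 green fluorescent protein reporter (4get), and all mice had been injected with 500 ng of interleukin-33 for 4 days and killed on day 5, so every level below is one after interleukin-33 and an untreated state was not analysed here. Cells were gated as lineage-negative and CD90-positive, with a stated purity above 90%. Whether libraries of a sort came from separate mice is not given, so the p-values speak only of spread among these libraries, which may be technical.

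ILC2 are tissue-resident lymphocytes that lack rearranged antigen receptors and make type 2 cytokines such as interleukin-5 and interleukin-13. In mice their development passes from a common lymphoid progenitor through precursors marked by Nfil3, Tox, Tcf7, Id2 and Zbtb16, and ends in cells that depend on Gata3, Rora, Bcl11b, Gfi1 and Ets1. Most of these factors act in other lymphocytes too: Gata3, Tcf7, Bcl11b, Tox and Ets1 are also expressed by T cells.

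The libraries held 17323004 to 23421426 assigned counts in KLRG1-positive cells and 17898268 to 23946073 in KLRG1-negative cells, and the 10 factors took 0.464 to 0.632% and 0.340 to 0.458% of them. The sort was visible in the RNA. Klrg1 had 1485, 1786 and 1327 CPM (counts scaled to a common, TMM-adjusted library total) in KLRG1-positive libraries 1, 2 and 3, against 13.1, 193 and 73.2 CPM in the KLRG1-negative libraries (edgeR adjusted p = 0.0939, which did not pass). Of 11 ILC2 markers, 10 had the higher mean in KLRG1-positive cells, and their sum was 4451 to 5114 CPM there against 503 to 2487 CPM in KLRG1-negative cells. Ptgdr2, the prostaglandin D2 receptor of ILC2, was at 0 in all KLRG1-positive libraries and in KLRG1-negative libraries 2 and 3. It had 0.946 CPM in KLRG1-negative library 1, and too few counts to be tested. Markers of other cells ran the other way. The sum of 15 T cell markers was 1524 to 1868 CPM in KLRG1-positive libraries against 2622 to 8797 CPM in KLRG1-negative libraries. The sum of 7 fibroblast markers was 17.7 to 47.6 CPM in KLRG1-positive against 3860 to 10794 CPM in KLRG1-negative libraries. In these lists 0 genes had the higher mean in KLRG1-positive cells. The sum of 10 B cell markers was 2464 to 8515 CPM in KLRG1-positive libraries, overlapping the 7421 to 28953 CPM of KLRG1-negative libraries, again with 0 genes higher in the KLRG1-positive mean. Taken singly, 9 of the 10 had separated groups with KLRG1-positive cells lower, against 15.2% of tested genes. Ighm, the most abundant of them, overlapped. Sums of NK cell and ILC1 markers (126 to 506 CPM in KLRG1-positive against 589 to 1723 CPM in KLRG1-negative libraries) and of ILC3 markers (16.2 to 27.8 CPM in KLRG1-positive against 62.6 to 178 CPM in KLRG1-negative libraries) were separated too, and those of myeloid, epithelial and endothelial markers overlapped. KLRG1-negative library 1 stood apart, with the lowest ILC2 sum (503 CPM) and the highest T cell sum (8797 CPM), and the log2 fold changes of all 10 factors are also given without it. In such bulk libraries, fewer cells of a type and less RNA per cell cannot be told apart.

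Gata3, Rora and Id2 were the 3 factors whose KLRG1-positive libraries all lay above all KLRG1-negative libraries. Against these 3 of 10, 9.46% of all tested genes had such separated groups with KLRG1-positive cells higher, and 0 of the 10 factors had them lower, against 15.2% of tested genes. None of the 10 passed the edgeR quasi-likelihood test after Benjamini-Hochberg adjustment over all tested genes at 0.05, in which 0.125% of tested genes were higher and 1.21% lower. At an unadjusted p under 0.05 the factors called were Gata3 and Id2, so 2 of 10 were higher, against 4.19% of tested genes, and 0 were lower, against 11.5%. DESeq2, the alternative count test, called the same 2 genes higher after adjustment, with 1.91% of its genes higher and 8.79% lower. Of the 10 log2 fold changes 6 were positive, against 46.5% of tested genes, and 4 negative, against 53.5%, and their median was 0.58, against -0.05 over all tested genes.

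**Figure D1:**
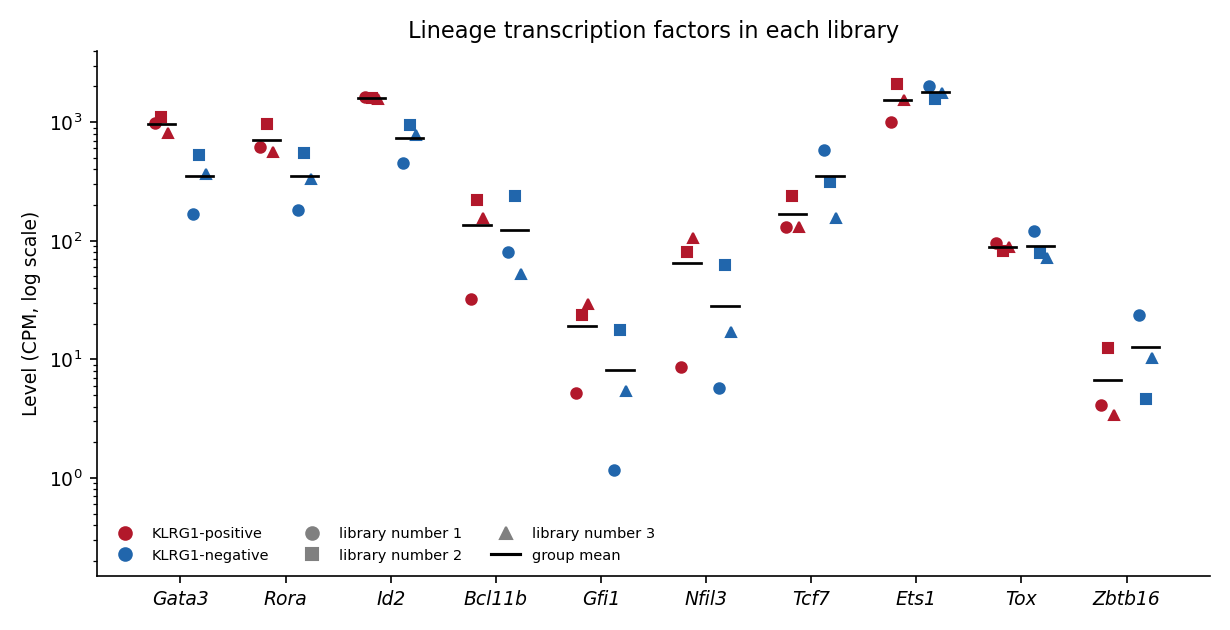
Level of each factor in each library, in CPM on a log scale, with KLRG1-positive libraries in red on the left and KLRG1-negative libraries in blue on the right of each pair, marker shapes for the library number and bars for the group means. The red and blue points do not overlap for Gata3, Rora and Id2, and they overlap for the other 7 genes.

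Gata3 encodes the zinc-finger factor required for the development and maintenance of ILC2 and for T helper 2 cells, and it binds the type 2 cytokine locus. Gata3 (ENSMUSG00000015619, GRCm38 chr2:9857078-9890034, minus strand) had 990, 1101 and 811 CPM in KLRG1-positive libraries 1, 2 and 3, against 169, 530 and 365 CPM in the KLRG1-negative libraries. The groups did not overlap, and KLRG1-negative library 1 was the lowest of the 6. The means were 967 ± 146 CPM in KLRG1-positive cells against 355 ± 181 CPM in KLRG1-negative cells (n = 3 each, ± SD), and the edgeR log2 fold change was 1.45 ± 0.42 SE with a 95% interval of 0.44 to 2.46 (adjusted p = 0.156). DESeq2 gave an adjusted p of 0.0282, so the call on Gata3 depended on the test. Without KLRG1-negative library 1 the log2 fold change was 1.12 (edgeR adjusted p = 0.128). The related factors Gata2, at 2.71 ± 3.65 CPM in the KLRG1-positive cells against 7.64 ± 5.52 CPM in the KLRG1-negative cells, and Gata1, at 2.04 ± 1.72 CPM in KLRG1-positive against 1.26 ± 2.14 CPM in KLRG1-negative cells, were low in both sorts and did not pass, nor did the GATA cofactor Zfpm1, at 0.720 ± 0.478 CPM in KLRG1-positive against 1.21 ± 1.16 CPM in KLRG1-negative cells.

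Rora encodes the nuclear receptor ROR alpha, without which mice make few ILC2. Rora (ENSMUSG00000032238, chr9:68653786-69388246, plus strand) had 616, 966 and 557 CPM in KLRG1-positive libraries 1, 2 and 3, against 180, 544 and 330 CPM in the KLRG1-negative libraries. The groups came close without overlapping: KLRG1-positive library 3 at 557 CPM was next to KLRG1-negative library 2 at 544 CPM. Rora averaged 713 ± 221 CPM in the KLRG1-positive cells against 351 ± 183 CPM in the KLRG1-negative cells, a log2 fold change of 1.02 ± 0.44 with a 95% interval of -0.04 to 2.08 (edgeR adjusted p = 0.340, DESeq2 0.231). Without KLRG1-negative library 1 the log2 fold change was 0.71 (edgeR adjusted p = 0.434). Rorb, a paralog, had too few counts to be tested.

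Id2 encodes a helix-loop-helix protein without a DNA-binding region, which pairs with E proteins and keeps them off DNA, and it marks all ILC lineages. Id2 (ENSMUSG00000020644, chr12:25093799-25097140, minus strand) had 1636, 1594 and 1557 CPM in KLRG1-positive libraries 1, 2 and 3, against 453, 954 and 784 CPM in the KLRG1-negative libraries. It was the most even of the 10 factors within KLRG1-positive cells, with a coefficient of variation of 2.47% there and 34.9% in KLRG1-negative cells. The means were 1595 ± 39.4 CPM in the KLRG1-positive cells against 730 ± 255 CPM in the KLRG1-negative cells, a log2 fold change of 1.13 ± 0.29 with a 95% interval of 0.43 to 1.82 (edgeR adjusted p = 0.117, DESeq2 0.0177), and without KLRG1-negative library 1 it was 0.88 (edgeR adjusted p = 0.0952).

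The paralog and the E protein partners of Id2 lay the other way or overlapped. Id3, the inhibitor paralog expressed by many T and B cells, had 10.3, 2.4 and 1.82 CPM in KLRG1-positive libraries, against 60.1, 91.4 and 91.8 CPM in KLRG1-negative libraries. That is a log2 fold change of -4.07 ± 0.76 for Id3, with separated groups, which did not pass (edgeR adjusted p = 0.0650). The E protein genes Tcf4, at 20.2 ± 2.80 CPM in the KLRG1-positive cells against 78.8 ± 31.8 CPM in the KLRG1-negative cells (log2 fold change -1.96 ± 0.35, adjusted p = 0.0588), and Tcf12, at 74.3 ± 11.5 CPM in KLRG1-positive against 129 ± 26.8 CPM in KLRG1-negative cells (adjusted p = 0.160), also had separated groups without passing. Tcf3, the third E protein gene, overlapped, at 115 ± 88.9 CPM in the KLRG1-positive cells against 173 ± 70.8 CPM in the KLRG1-negative cells. Id1 averaged 1.12 ± 1.3 CPM in KLRG1-positive against 5.26 ± 0.832 CPM in KLRG1-negative cells, and Id4 was not tested. T and B cells also express Id3 and E proteins. Marker sums of T cells, B cells and fibroblasts were higher in each KLRG1-negative library than in the KLRG1-positive library of the same number. In KLRG1-negative libraries 1, 2 and 3 the sums were 8797, 4734 and 2622 CPM for T cells. For B cells they were 27260, 7421 and 28953 CPM, and for fibroblasts 3860, 6684 and 10794 CPM. Tcf4 had 51.6, 71.0 and 114 CPM there, Tcf3 107, 163 and 248 CPM, and Tcf12 125, 104 and 157 CPM. The part of each cell type in these values was not tested.

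The 3 factors with separated groups can be set beside the sequence before their start sites. RefSeq (GRCm38.p6) gives start windows for 7 of the 10 factors: Gata3, Rora, Id2, Bcl11b, Gfi1, Tcf7 and Nfil3. The 250 bases before the start were searched on both strands for the GATA letters AGATAA, the ROR letters AGGTCA, the ETS letters CGGAAG, the TCF letters TCAAAG, the E-box letters CANNTG, the NFIL3 letters ACGTAA and the GFI1 letters AAATCA. The Gata3 window is shown as chr2:9878601-9878850, minus strand, all of which lies in an exon of the antisense gene Gm13256. Rora is shown as chr9:68653536-68653785, plus strand. Id2 is shown as chr12:25096254-25096342, minus strand, the 89 bases of its window outside its own annotated exons. Tcf7, a factor with a negative log2 fold change, is shown for contrast as chr11:52282596-52282711, minus strand, the 116 bases next to one of its starts outside its own annotated exons. The sequences are shown because the 3 separated factors share a pattern over the libraries, and capitals, in Tcf7, mark matches to the ETS and ROR letters, read on the other strand.
Gata3: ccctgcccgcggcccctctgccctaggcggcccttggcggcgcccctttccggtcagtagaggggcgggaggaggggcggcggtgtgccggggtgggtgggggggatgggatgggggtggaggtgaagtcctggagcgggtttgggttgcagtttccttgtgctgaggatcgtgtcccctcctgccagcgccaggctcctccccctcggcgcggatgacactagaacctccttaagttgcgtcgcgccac
Rora: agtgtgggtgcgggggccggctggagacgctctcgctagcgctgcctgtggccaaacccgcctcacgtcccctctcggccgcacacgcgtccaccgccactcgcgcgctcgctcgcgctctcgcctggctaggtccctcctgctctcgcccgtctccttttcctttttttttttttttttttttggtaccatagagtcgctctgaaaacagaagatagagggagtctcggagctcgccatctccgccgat
Id2: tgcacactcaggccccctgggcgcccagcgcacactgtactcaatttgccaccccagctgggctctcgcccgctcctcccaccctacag
Tcf7: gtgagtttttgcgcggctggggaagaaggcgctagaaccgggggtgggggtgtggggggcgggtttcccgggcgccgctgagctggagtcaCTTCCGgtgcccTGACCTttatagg
The Gata3 and Rora windows held no match to any of the 7 motifs. The Tcf7 stretch held the ETS letters starting 25 bases before the start and the ROR letters starting 13 bases before it. The Id2 window held an E-box 196 bases before the start. It also held the ETS letters 145 bases before the start, inside an annotated Id2 exon and outside the stretch shown. Elsewhere the Nfil3 window held the ROR letters and an E-box, the Bcl11b window the TCF letters, and both Gfi1 windows and the other Tcf7 window an E-box. The ROR letters of Nfil3 and the TCF letters of Bcl11b likewise lay inside annotated exons of those genes. Among 32851 mouse start windows of the same length, 13.6% held the ETS letters, 14.0% the ROR letters, 13.8% the TCF letters and 66.2% an E-box, so that a single match is common. The windows had 70.0% G and C bases for Gata3, 61.2% for Rora and 62.8% for Id2, against a median of 52.4% over all windows, and 19, 26 and 18 CpG pairs, against a median of 6. This did not set the 3 separated factors apart. The share was 64.4 and 76% in the Tcf7 windows, 81.6% in Nfil3, 57.6 and 59.2% in Gfi1 and 44.8% in Bcl11b. Their CpG pairs numbered 15 and 37 for Tcf7, 43 for Nfil3, 9 and 13 for Gfi1 and 9 for Bcl11b. A match is a description of letters, and a window without one says nothing of the factor.

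Gfi1, Nfil3 and Bcl11b differed widely between libraries of 1 sort, and their groups overlapped. Gfi1 encodes a zinc-finger repressor that maintains the ILC2 program and restrains ILC3 genes in mice. Gfi1 (ENSMUSG00000029275, chr5:107716657-107726036, minus strand) had 5.18, 23.6 and 29.1 CPM in KLRG1-positive libraries 1, 2 and 3, against 1.17, 17.8 and 5.38 CPM in the KLRG1-negative libraries. Within each library number, in contrast, the KLRG1-positive level was the higher, by 4.43-, 1.32- and 5.41-fold. The log2 fold change was 1.25 ± 1.05 (95% interval -1.30 to 3.79, edgeR adjusted p = 0.674), and over fits with libraries left out it ran from 0.68 to 2.68. Gfi1 overlaps the opposite-strand gene A430072P03Rik, which had 121 counts in KLRG1-positive and 107 in KLRG1-negative libraries against 1189 and 584 for Gfi1, and the counting did not use strand.

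Nfil3 encodes a basic leucine zipper factor that acts early, in the progenitors of all ILCs. Nfil3 (ENSMUSG00000056749, chr13:52967209-52981073, minus strand) had 8.61, 81.0 and 105 CPM in KLRG1-positive libraries, against 5.73, 62.1 and 16.9 CPM in KLRG1-negative libraries. Library 1 was the lowest of its sort in both sorts, and the ratio within the library number was above 1 in all 3 pairs, at 1.5, 1.3 and 6.21. The log2 fold change was 1.2 ± 1.11 (95% interval -1.49 to 3.89, edgeR adjusted p = 0.713). The related PAR zipper genes Hlf, at 115 ± 43.7 CPM in the KLRG1-positive cells against 73.4 ± 61.6 CPM in the KLRG1-negative cells, Tef, at 42.1 ± 14.1 CPM in KLRG1-positive against 67.4 ± 17.3 CPM in KLRG1-negative cells, and Dbp, at 3.94 ± 2.42 CPM in KLRG1-positive against 5.80 ± 3.27 CPM in KLRG1-negative cells, overlapped between the sorts.

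Bcl11b encodes a zinc-finger factor that keeps ILC2 and T cell identity. Bcl11b (ENSMUSG00000048251, chr12:107910403-108003602, minus strand) had 32.1, 222 and 154 CPM in KLRG1-positive libraries, against 80.9, 238 and 52.5 CPM in KLRG1-negative libraries. No direction held across the library numbers, with ratios of 0.397, 0.934 and 2.94, and the log2 fold change of 0.14 ± 0.82 had a 95% interval of -1.84 to 2.12 (edgeR adjusted p = 0.973), which leaves room for a difference in either direction. Its paralog Bcl11a, a B cell factor, had 1.85 ± 1.61 CPM in the KLRG1-positive cells against 22.4 ± 23.0 CPM in the KLRG1-negative cells with separated groups (log2 fold change -3.58 ± 1.08, adjusted p = 0.173), and B cell markers summed to 2464 to 8515 CPM in KLRG1-positive and 7421 to 28953 CPM in KLRG1-negative libraries; their part in this value was not tested.

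Low levels in both libraries numbered 1 were shared by other genes. Junb, which encodes an AP-1 subunit induced early in activation, had 633, 3234 and 1903 CPM in KLRG1-positive and 271, 2623 and 2279 CPM in KLRG1-negative libraries. Nr4a1, an immediate early nuclear receptor gene, had 139, 1241 and 529 CPM in KLRG1-positive and 69.9, 601 and 394 CPM in KLRG1-negative libraries. As with Nfil3 and Gfi1, library 1 was the lowest of its sort in both sorts. The share of all tested genes with this order is not given here, and what sets the libraries numbered 1 apart was not tested.

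Tcf7, Ets1, Tox and Zbtb16 had negative log2 fold changes, none of which passed. Tcf7 encodes TCF-1, a high mobility group factor of early ILC precursors and of T cells, in which it is high in naive cells. Tcf7 (ENSMUSG00000000782, chr11:52252371-52283014, minus strand) had 130, 240 and 130 CPM in KLRG1-positive libraries, against 586, 315 and 156 CPM in KLRG1-negative libraries. It was the 1 factor lower in KLRG1-positive cells in all 3 library numbers, with ratios of 0.222, 0.763 and 0.831, while the groups overlapped. The log2 fold change was -1.08 ± 0.52 (95% interval -2.34 to 0.18, edgeR adjusted p = 0.397), and without KLRG1-negative library 1 it was -0.49 (adjusted p = 0.701). Tcf7 overlaps the same-strand lincRNA gene Gm26551, which had 95 counts in KLRG1-positive and 742 in KLRG1-negative libraries against 9729 and 21768 for Tcf7. Lef1, its paralog, had 69.1, 110 and 81.4 CPM in KLRG1-positive and 502, 203 and 105 CPM in KLRG1-negative libraries, with the same order of libraries in KLRG1-negative cells (log2 fold change -1.63 ± 0.58, adjusted p = 0.240). The other paralogs differed from each other: Tcf7l2 had 0.526 ± 0.418 CPM in the KLRG1-positive cells against 7.35 ± 1.83 CPM in the KLRG1-negative cells with separated groups (adjusted p = 0.131), and Tcf7l1 had 5.85 ± 1.35 CPM in KLRG1-positive against 5.59 ± 3.02 CPM in KLRG1-negative cells.

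Ets1 encodes an ETS-domain factor that supports ILC2 development and is abundant in T, B and NK cells. Ets1 (ENSMUSG00000032035, chr9:32636221-32757820, plus strand) had 1006, 2106 and 1543 CPM in KLRG1-positive libraries, against 2007, 1577 and 1753 CPM in KLRG1-negative libraries. The KLRG1-negative values lay inside the KLRG1-positive range, and the log2 fold change of -0.20 ± 0.29 had a 95% interval of -0.90 to 0.50 (edgeR adjusted p = 0.840). Fli1, another ETS gene of haematopoietic cells, had separated groups in the other direction, at 252 ± 39.7 CPM in the KLRG1-positive cells against 180 ± 13.3 CPM in the KLRG1-negative cells (log2 fold change 0.48 ± 0.18, adjusted p = 0.275). Ets2 averaged 50.4 ± 19.6 CPM in KLRG1-positive against 49.4 ± 21.4 CPM in KLRG1-negative cells.

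Tox encodes a high mobility group factor needed for ILC precursors and for developing T cells. Tox (ENSMUSG00000041272, chr4:6686353-6991557, minus strand) had 96.3, 82.6 and 88.0 CPM in KLRG1-positive libraries, against 120, 79.3 and 72.1 CPM in KLRG1-negative libraries. Its log2 fold change of -0.02 ± 0.25 had the narrowest interval of the 10 factors, -0.62 to 0.57 (edgeR adjusted p = 0.985), and the sign turned under 8 of 15 alternative fits. Its paralogs Tox2, at 112 ± 88.7 CPM in the KLRG1-positive cells against 43.9 ± 32.7 CPM in the KLRG1-negative cells, and Tox4, at 141 ± 12.6 CPM in KLRG1-positive against 118 ± 30.6 CPM in KLRG1-negative cells, overlapped between the sorts.

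Zbtb16 encodes PLZF, which marks ILC precursors and is kept in natural killer T cells. Zbtb16 (ENSMUSG00000066687, chr9:48654297-48836222, minus strand) had 4.11, 12.4 and 3.37 CPM in KLRG1-positive libraries, against 23.5, 4.61 and 10.3 CPM in KLRG1-negative libraries. Library 2 ran against the other pairs, with a ratio of 2.70 against 0.175 and 0.328, and the log2 fold change was -0.94 ± 0.79 (95% interval -2.87 to 0.98, edgeR adjusted p = 0.674). Of 2 related BTB zinc-finger genes, Zbtb7b, a factor of T helper cells, had separated groups with KLRG1-positive cells higher, at 28.9 ± 3.52 CPM against 14.2 ± 4.99 CPM in KLRG1-negative cells (log2 fold change 1.02 ± 0.35, adjusted p = 0.223), and Zbtb32 had 45.0 ± 25.5 CPM in the KLRG1-positive cells against 127 ± 119 CPM in the KLRG1-negative cells.

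**Figure D2:**
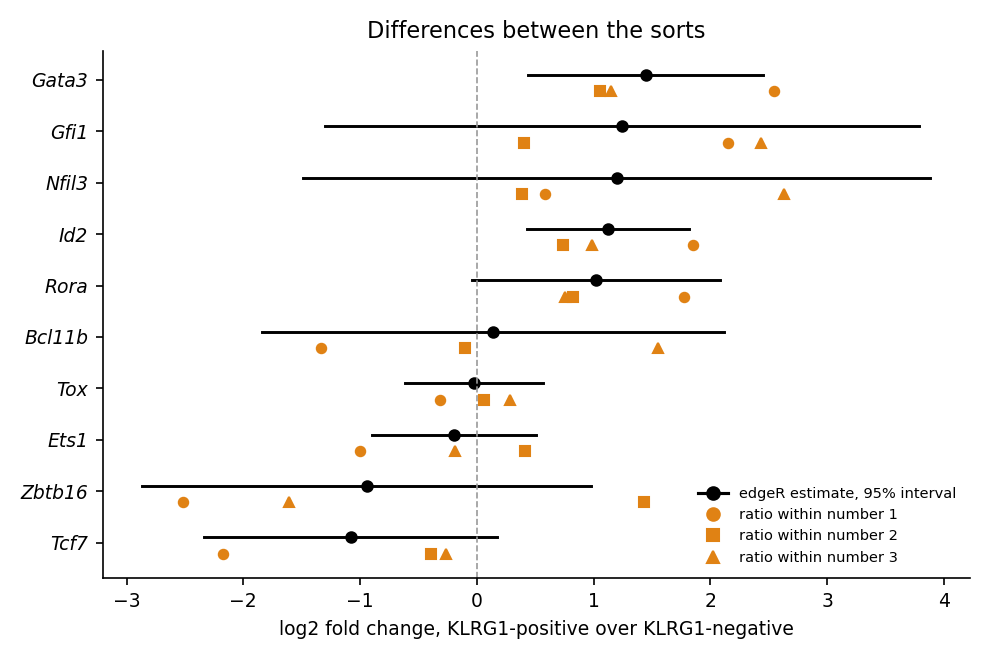
Log2 fold change of each factor, KLRG1-positive over KLRG1-negative, from edgeR with its 95% interval in black, and the log2 ratio within each library number in orange. The intervals of Gata3 and Id2 lie above 0, and all 3 log2 ratios lie above 0 for Gata3, Gfi1, Nfil3, Id2 and Rora and below 0 for Tcf7.

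Across the library numbers, 5 of 10 factors (Gata3, Rora, Id2, Gfi1 and Nfil3) were higher in KLRG1-positive cells in all 3 pairs, against 21.7% of tested genes, and 1 of 10 (Tcf7) was lower in all 3, against 25.1%. Gata3, Rora and Id2 had separated groups and would be higher in all 3 pairs however the libraries were paired. Only Gfi1 and Nfil3 therefore add to the count of separated factors. The numbers were read as pairing the libraries, and a fit with the number as a block was therefore also made. A fit without KLRG1-negative library 1 also called none of the 10. Without it the log2 fold change was -0.16 in place of -0.94 for Zbtb16, 0.74 in place of 1.25 for Gfi1 and 0.73 in place of 1.2 for Nfil3, it turned sign for Bcl11b (-0.08 in place of 0.14) and Tox (0.24 in place of -0.02), and for Ets1 it was -0.09. By edgeR with the block none of the 10 passed, with 0.0% of tested genes higher and 0.349% lower, and 4 of the 10 were higher and 0 lower at an unadjusted p under 0.05, against 6.74 and 12.3% of tested genes. DESeq2 with the block, a fit added after the data were seen, called 4 of 10 higher, with 3.61% of its genes higher and 11.2% lower: Gata3 (adjusted p = 0.000316), Id2 (0.00125), Rora (0.00303) and Gfi1 (0.0334).

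The order of the factors by level was compared on RPKM, CPM per kilobase of the deposited gene length. In KLRG1-positive cells Id2 came first at 654 RPKM, followed by Gata3 (243), Ets1 (183), Tcf7 (63.5), Rora (54.6), Nfil3 (32.0), Bcl11b (16.8), Tox (11.7), Gfi1 (6.05) and Zbtb16 (1.26). In KLRG1-negative cells Id2 was again first at 300 RPKM, and Ets1 (210) and Tcf7 (134) preceded Gata3 (89.1), Rora (26.9), Bcl11b (15.2), Nfil3 (13.9), Tox (11.9), Gfi1 (2.54) and Zbtb16 (2.42). By these means Gata3 ranked 2 of 10 in KLRG1-positive and 4 of 10 in KLRG1-negative cells. The place of Tcf7 before Gata3 in KLRG1-negative cells rested on library 1, with 223 RPKM for Tcf7 and 42.5 for Gata3, since in libraries 2 and 3 Gata3, at 133 and 91.7 RPKM, was above Tcf7, at 120 and 59.5 RPKM. Most neighbours in these orders had overlapping ranges over the 3 libraries. In KLRG1-positive cells only Id2 and Gata3, Ets1 and Tcf7, and Tox and Gfi1 had ranges that did not overlap, and in KLRG1-negative cells only Gata3 and Rora, and Tox and Gfi1. Scaling to TPM gave the same orders.

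As shares of the summed RPKM of the 10 factors, which do not depend on library scaling, Id2 and Gata3 made up more of the total in KLRG1-positive cells. Id2 held 57.9, 45.6 and 52.8% of it in KLRG1-positive libraries, against 25.3, 41.2 and 43.9% in KLRG1-negative libraries. Gata3 held 21.5, 19.3 and 16.9% in KLRG1-positive libraries, against 5.78, 14.0 and 12.5% in KLRG1-negative libraries. Neither gene's groups overlapped.
Ets1, Tcf7 and Tox held less, again without overlap. Ets1 held 10.2, 17.3 and 15.1% in KLRG1-positive libraries, against 32.2, 19.6 and 28.2% in KLRG1-negative libraries. Tcf7 held 4.27, 6.4 and 4.09% in KLRG1-positive libraries, against 30.3, 12.6 and 8.12% in KLRG1-negative libraries. Tox held 0.936 ± 0.168% in KLRG1-positive and 1.51 ± 0.554% in KLRG1-negative libraries. For each of these 5 shares the exact two-sided permutation p was 0.10, the smallest that 3 against 3 libraries can give, and shares of a total move against each other by construction. The Rora share overlapped, at 4.25 ± 0.831% in KLRG1-positive and 3.23 ± 1.27% in KLRG1-negative libraries, although its CPM did not.

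**Figure D3:**
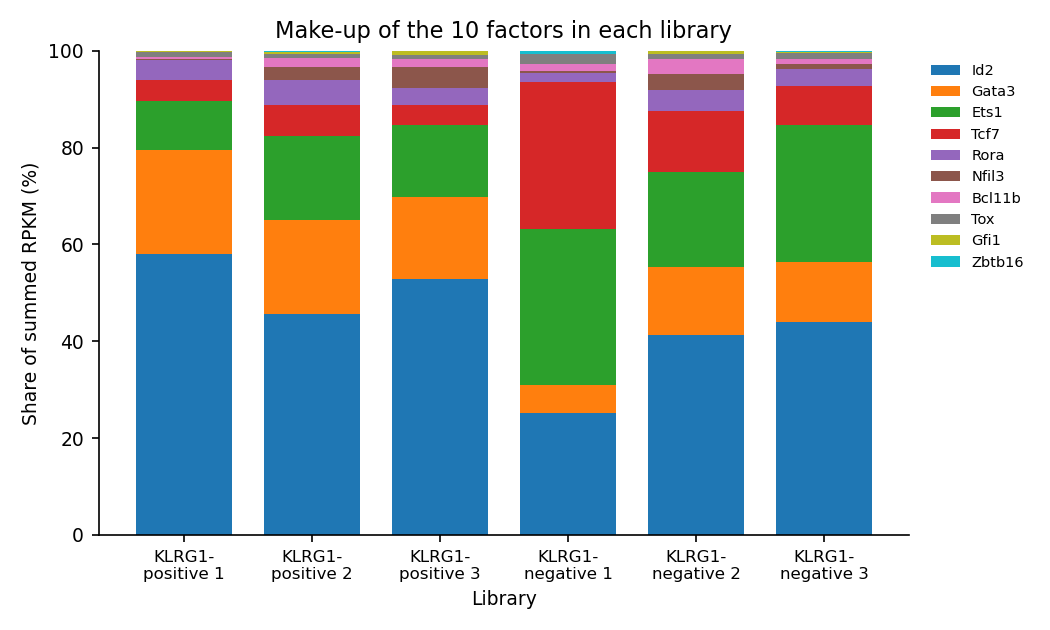
Share of each factor in the summed RPKM of the 10 factors, in percent, in each library, with the KLRG1-positive libraries on the left. Id2 and Gata3 together fill most of each KLRG1-positive bar and of the bars of KLRG1-negative libraries 2 and 3. Ets1 and Tcf7 fill most of the bar of KLRG1-negative library 1, with 32.2 and 30.3%.

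Set against Gata3 in the same library, the other factors were mostly lower in KLRG1-positive cells. The mean log2 ratio of RPKM to Gata3 differed, KLRG1-positive minus KLRG1-negative, by -2.53 for Tcf7, -1.84 for Ets1, -1.58 for Tox and -0.47 for Rora, each with groups that did not overlap. The difference was -2.48 for Zbtb16, -1.54 for Bcl11b, -0.39 for Id2, -0.38 for Nfil3 and 0.08 for Gfi1, with overlap. Each difference equals that of the factor's mean log2 CPM less that of Gata3. The Gata3 difference was 1.59, which only Gfi1 exceeded, at 1.66. Negative differences for all factors but Gfi1, Rora and Id2 among them, thus followed from the choice of Gata3.

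The scale changed the picture most when levels were divided by marker sums, a comparison chosen after the data were seen. As a percentage of the summed CPM of 11 ILC2 markers, Gata3 stood at 22.2, 21.9 and 15.9% in KLRG1-positive and 33.6, 21.3 and 17.9% in KLRG1-negative libraries, and the groups overlapped. Rora stood at 13.8, 19.2 and 10.9% in KLRG1-positive libraries against 35.8, 21.9 and 16.1% in KLRG1-negative libraries, also with overlap. Id2 turned its direction, at 36.7, 31.7 and 30.4% in KLRG1-positive and 90.1, 38.4 and 38.4% in KLRG1-negative libraries, without overlap (exact permutation p = 0.10). Per ILC2 marker RNA, then, neither Gata3 nor Rora stood apart in KLRG1-positive cells. Dividing by a sum shifts the mean log2 difference of every factor by the same amount. The ILC2 sum was raised in KLRG1-positive cells by more than any factor was, so negative differences for all 10 followed from the sum. Gfi1 had the largest mean log2 difference before division, at 1.66, and was at -0.17 after it. Ets1, Tcf7 and Tox were also lower without overlap. Divided by the summed CPM of 15 T cell markers, the difference was positive for all 10. This likewise followed from the sum, since Tcf7, the lowest before division at -0.94, was at 0.60 after it. Gata3 (3.13), Id2 (2.74), Rora (2.66) and Tox (1.55) were higher without overlap, and so was Tcf7, with the smallest difference of the 10 (0.60). As a percentage of that sum Tcf7 stood at 8.34, 12.9 and 8.51% in KLRG1-positive and 6.66, 6.66 and 5.95% in KLRG1-negative libraries. The ILC2 markers include Arg1 and cytokine transcripts, which vary with activation as well as with cell number, so their sum is no count of cells. Nor is the T cell sum, whose 14 tested genes behaved differently. Of them 10 had separated groups with KLRG1-positive cells lower, against 15.2% of tested genes. Trac was among these, at 33.4 ± 22.4 CPM in KLRG1-positive against 515 ± 405 CPM in KLRG1-negative cells. Trbc2, the most abundant of the list in KLRG1-positive cells, overlapped, at 668 ± 79.4 CPM there against 953 ± 400 CPM in KLRG1-negative cells.

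**Figure D4:**
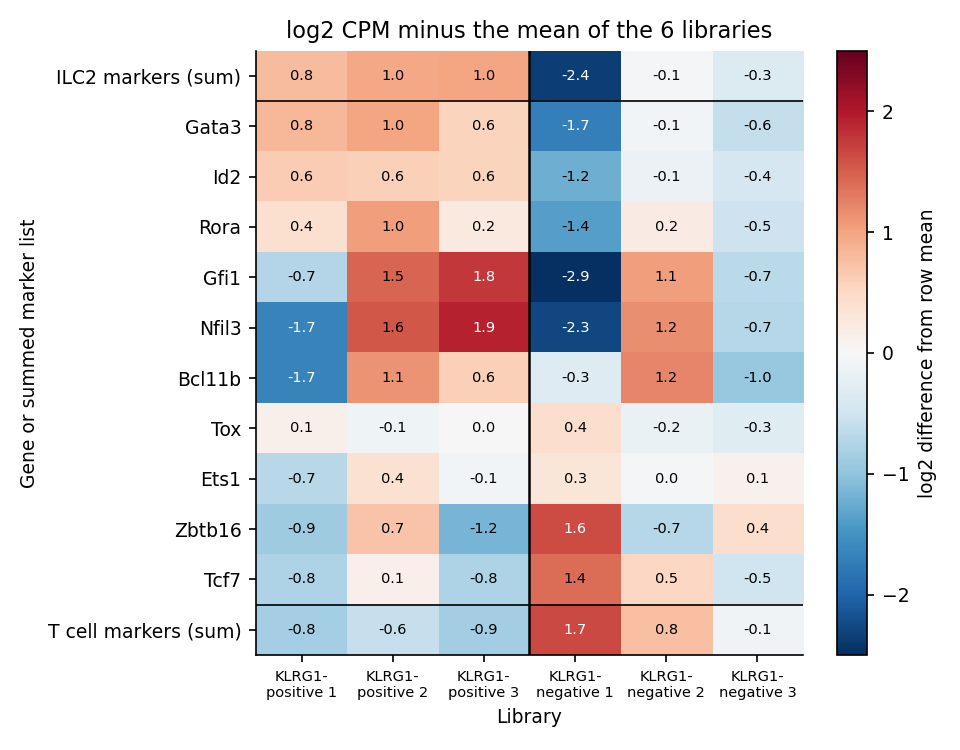
Log2 CPM of each factor minus its mean over the 6 libraries (color and number), with the summed ILC2 markers in the top row and the summed T cell markers in the bottom row, KLRG1-positive libraries on the left. The Gata3, Id2 and Rora rows run like the ILC2 row, with the lowest value in KLRG1-negative library 1, and the Tcf7 row runs like the T cell row.

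The patterns over the 6 libraries were compared by the root mean square difference of centred log2 CPM, a description without a test, in which 0 means the same pattern. The nearest pairs among the factors were Gata3 and Id2 (0.28), Gata3 and Rora (0.28) and Rora and Id2 (0.29), followed by Ets1 and Tox (0.42) and by Gfi1 and Nfil3 (0.45), and the farthest were Gfi1 and Zbtb16 (2.33). The ILC2 marker sum lay 0.34 from Gata3, 0.52 from Id2, 0.54 from Rora and 1.86 from Tcf7. The T cell marker sum lay 0.37 from Tcf7 and 1.81 from Gata3. Among 9110 other tested protein-coding genes with a mean of at least 10 CPM, those most like Gata3 were Acot7, an acyl-CoA thioesterase gene (0.072), Pip5k1b, a phosphoinositide kinase gene (0.085), and Plcb4, a phospholipase C gene (0.13), against a median of 1.03 over all those genes. Acot7 had 603, 720 and 549 CPM in KLRG1-positive and 105, 328 and 254 CPM in KLRG1-negative libraries. Those most like Rora were Kctd17 (0.13), the LIM-only cofactor gene Lmo4 (0.14) and Tnfrsf25, which encodes death receptor 3, the receptor for TL1A (0.14), against a median of 0.88.
The nearest gene was Lxn for Id2 (0.059), Fam160b1 for Bcl11b (0.10), Bmp7 for Gfi1 (0.25), Grb2 for Nfil3 (0.14), Sit1 for Tcf7 (0.23), Celf1 for Ets1 (0.090), Elmo1 for Tox (0.052) and Mgat4a for Zbtb16 (0.49).

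Other regulators were read from lists. Of 22 tested partners and paralogs of the factors, 0 passed the edgeR test in either direction, 8 log2 fold changes were positive and 14 negative, and the median was -0.71, against -0.05 over all tested genes (2 higher and 7 lower at an unadjusted p under 0.05, which 4.19 and 11.5% of tested genes were). Of 24 other regulators of ILC development 0 passed (1 higher and 5 lower at an unadjusted p under 0.05), with 11 positive and 13 negative log2 fold changes and a median of -0.12. The most abundant were Nfkb1, an NF-kappa B subunit gene, at 846 ± 115 CPM in the KLRG1-positive cells against 287 ± 168 CPM in the KLRG1-negative cells with separated groups (log2 fold change 1.56 ± 0.51, adjusted p = 0.203), and Nr4a1, at 636 ± 559 CPM in KLRG1-positive against 355 ± 268 CPM in KLRG1-negative cells. Of 20 regulators of ILC2 activation 0 passed (3 higher and 1 lower at an unadjusted p under 0.05), with 13 positive and 7 negative log2 fold changes and a median of 0.19. The most abundant of these were Junb, at 1923 ± 1300.4 CPM in the KLRG1-positive cells against 1724 ± 1270.6 CPM in the KLRG1-negative cells, and Bhlhe40, at 1031 ± 614 CPM in KLRG1-positive against 389 ± 258 CPM in KLRG1-negative cells, both with overlapping groups.

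The regulators of other ILC subsets all had negative log2 fold changes, 6 of 6 against 53.5% of tested genes, with a median of -2.32, and 0 passed (5 lower at an unadjusted p under 0.05, against 11.5% of tested genes). The most abundant were Irf8, at 26.2 ± 9.38 CPM in the KLRG1-positive cells against 74.1 ± 39.9 CPM in the KLRG1-negative cells (adjusted p = 0.206), and Tbx21, which encodes the ILC1 and NK cell factor T-bet. Tbx21 had 15.9, 6.68 and 6.75 CPM in KLRG1-positive libraries, against 131, 74.6 and 52.6 CPM in KLRG1-negative libraries (log2 fold change -3.14 ± 0.54, edgeR adjusted p = 0.0561, and 0.0425 with the replicate block, in which it passed). Of 19 tested ILC2 receptors and effector genes 18 lay on the positive side, against 46.5% of tested genes (median log2 fold change 1.59). None of the 19 passed (6 higher and 0 lower at an unadjusted p under 0.05, against 4.19 and 11.5% of tested genes). Arg1, the arginase gene of lung ILC2, at 2361 ± 345 CPM in the KLRG1-positive cells against 676 ± 502 CPM in the KLRG1-negative cells, and Ccr8, a chemokine receptor gene, at 963 ± 374 CPM in KLRG1-positive against 545 ± 451 CPM in KLRG1-negative cells, were the most abundant. In the same libraries, by edgeR, 1 of 14 tested T cell markers (Cd28) was lower, and with the block 4 others were (Trac, Cd3d, Cd3e and Themis). Of 10 B cell markers 1 was lower (Blk), and with the block 5 were, among them Blk, Ebf1 and Ms4a1. Of 7 fibroblast markers 5 were lower (Col1a1, Col1a2, Col3a1, Dcn and Lum), and with the block 1 was (Lum). Over all tested genes, 1.21% were lower by edgeR and 0.349% with the block.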

How the data were processed

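RNA was sequenced from 3 KLRG1-positive and 3 KLRG1-negative libraries. The authors deposited raw counts of reads per gene, made with featureCounts without strand on Ensembl release 90 gene models of GRCm38 with multi-mapping reads left out, per the file headers. These multi-mapping reads were 26.3 to 32.3% of alignments, so genes with close copies are understated. STAR 2.4.1d and Subread 1.5.2 are named in the submitters' processing notes. Libraries were made with SMARTer amplification and Nextera XT, per the labels' protocols, which does not mark strand, so reads of a gene and its antisense partner cannot be told apart.

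From the deposited counts, edgeR 4.0.16 (R 4.3.3) was run with TMM factors, filterByExpr by group and robust quasi-likelihood F tests, two-sided, with Benjamini-Hochberg adjustment over the 15197 genes kept; the biological coefficient of variation was 0.631. Standard errors are those of log2 fold changes, KLRG1-positive over KLRG1-negative. The scripts were tested on simulated data. Alternatives were DESeq2 1.42.0, RLE factors, library size only, no low-count filter, the replicate block and each library left out. Across genes, libraries that share a number deviated together from the mean of their sort (correlations of 0.38, 0.34 and 0.19), so the numbers were read as pairing the libraries, from the data and not the labels. Amplified reads are not independent molecules. Symbols came from GENCODE M21, in which 52403 identifiers were found, and coordinates are the deposited ones. RPKM used the deposited gene length, another count-table column. Likeness was measured on log2 CPM (prior count 2), and a prior count of 0.5 gave the same nearest genes.

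The factors, gene lists and motifs were chosen with earlier results of these data known. All factors are named. For each, the nearest gene is named, and the 3 nearest for Gata3 and Rora. Of each regulator list, genes past the threshold are named, or otherwise the 2 most abundant, with partners and paralogs beside their factor. Some genes of these lists are not reported here. Other genes named were chosen after their values were seen.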

Additional observations from a re-analysis of the deposited data

How the results depend on the processing

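Over 15 alternative fits Gata3, Rora, Id2, Gfi1 and Nfil3 kept positive and Tcf7 negative log2 fold changes: 1.10 to 1.99 for Gata3, 0.71 to 1.61 for Rora, 0.86 to 1.49 for Id2, 0.68 to 2.68 for Gfi1, 0.48 to 2.63 for Nfil3 and -1.45 to -0.34 for Tcf7. The other 4 turned sign in some fits, and the cause was not tested. With libraries left out, Bcl11b ran from -0.39 to 1.11, Ets1 from -0.47 to 0.15, Zbtb16 from -2.09 to 0.12 and Tox from -0.15 to 0.24, and Tox was 0.0692 without the low-count filter and, with the replicate block, 0.0110 by edgeR and 0.00974 by DESeq2. No edgeR fit called a factor, with 2 to 4 at an unadjusted p under 0.05, while DESeq2 called 2 higher and DESeq2 with the replicate block 4 higher. Over all genes edgeR called 19 higher and 184 lower, and DESeq2 350 and 1609. With the replicate block edgeR called 0 and 53, and DESeq2 594 and 1842. Without the low-count filter edgeR called 37 and 282. With libraries left out edgeR called 0 to 5 higher and 0 to 168 lower genes (406 to 1048 and 1159 to 1779 at an unadjusted p under 0.05), and leaving out any single library moved both counts by over 1.5 times, except that KLRG1-positive library 1 moved only the higher one. The block changed no edgeR call on the 10 factors. Gfi1 had 21 to 656 and Zbtb16 73 to 422 counts per library.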

Other observations

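Of 20 regulators of ILC2 activation, 3 had separated groups with KLRG1-positive cells higher, against 9.46% of tested genes, and 1 with KLRG1-positive cells lower, against 15.2%. Batf, an AP-1 family gene, had 176, 177 and 184 CPM in KLRG1-positive libraries, against 78.1, 108 and 61.3 CPM in KLRG1-negative libraries (log2 fold change 1.12 ± 0.24 SE, edgeR adjusted p = 0.0825). Maf had 140, 146 and 132 CPM in KLRG1-positive libraries, against 31.1, 72.0 and 65.5 CPM in KLRG1-negative libraries (log2 fold change 1.31 ± 0.34, edgeR adjusted p = 0.120). Pparg, a nuclear receptor gene of lung ILC2, had 194, 223 and 265 CPM in KLRG1-positive libraries, against 9.01, 69.8 and 70.6 CPM in KLRG1-negative libraries (log2 fold change 2.19 ± 0.72, edgeR adjusted p = 0.210). The 1 lower was Bhlhe41, with 0.394, 0.694 and 0.888 CPM in KLRG1-positive libraries, against 1.39, 2.56 and 13.1 CPM in KLRG1-negative libraries (log2 fold change -3.09 ± 1.03, edgeR adjusted p = 0.213). None of the 4 passed.

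Of 24 other regulators of ILC development, 5 (Satb1, Bach2, Hhex, Spi1 and Foxo1) had separated groups with KLRG1-positive cells lower, against 15.2% of tested genes, and 1 (Nfkb1) with KLRG1-positive cells higher, against 9.46%; the other 18, among them Ikzf1, Ikzf3, Runx1 and Runx3, overlapped. None of the 24 passed. Satb1 had 18.2, 28.6 and 23.9 CPM in KLRG1-positive libraries, against 155, 99.2 and 33.5 CPM in KLRG1-negative libraries (edgeR adjusted p = 0.142). Bach2 had 4.90, 6.62 and 1.02 CPM in KLRG1-positive libraries, against 45.5, 22.3 and 24.0 CPM in KLRG1-negative libraries (edgeR adjusted p = 0.123). Genes in these paragraphs were named after their values were seen. T cell marker sums were 1524 to 1868 CPM in KLRG1-positive and 2622 to 8797 CPM in KLRG1-negative libraries, and their part in these values was not tested.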
